A study of Mus musculus with 21 samples.

Results

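Loss of Pdcd10 directed at brain endothelium was compared with intact Pdcd10 in mice kept at 12% oxygen for 7 days. All knockout and control libraries of that condition with a count column were taken, 11 of the 19 libraries of the series with counts: KO hypoxia replicates 1 to 7 and Flox hypoxia replicates 3 to 6. KO mice carried Slco1c1-iCreERT2, a tamoxifen-dependent Cre recombinase that the Slco1c1 promoter drives in brain endothelial cells, with Pdcd10fl/fl and the transgene Aldh1l1-EGFP/Rpl10a. Flox mice had Pdcd10fl/fl and Aldh1l1-EGFP/Rpl10a without Cre, so both groups carried the floxed alleles and the astrocyte reporter that tags ribosomal protein L10a with EGFP. The KO mice were given 50 micrograms of 4-hydroxytamoxifen on postnatal day 1, and the brains were taken on postnatal day 57. Whether the Flox mice received the drug is not settled by the labels, and Cre carriers without an injection are also named as controls without saying which samples they were. The 4 KO and 4 Flox libraries kept at 21% oxygen enter as a further comparison.

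PDCD10, also called CCM3, forms a complex with KRIT1 and CCM2, and inherited loss of any of the 3 genes causes cerebral cavernous malformations, clusters of dilated and leaky brain capillaries. Endothelial loss releases the MEKK3 kinase, encoded by Map3k3, and raises the transcription factors KLF2 and KLF4. Astrocytes wrap the brain's vessels with their endfeet, clear glutamate and potassium, make most of the cholesterol that neurons use, and turn reactive near lesions. Low oxygen stabilises hypoxia-inducible factor (HIF), which switches on glycolytic and angiogenic genes.

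Messenger RNA was counted per gene, with 45399320 to 65261791 counts per library. The design text describes pull-down of astrocyte ribosomes and the sample protocol describes brain tissue homogenised for total RNA. Astrocyte genes were abundant in every library: the 10 astrocyte markers summed to 36520 to 54830 CPM (counts scaled to a common library size after TMM normalization) in KO libraries and 53520 to 61170 CPM in Flox libraries, with none at 0. The 11 neuron markers summed to 1120 to 4019 CPM in KO and 951 to 1373 CPM in Flox libraries. KO replicates 1 to 3 stood apart from KO replicates 4 to 7. Mitochondrially encoded genes took 0.0442 to 0.0685% of counts in KO replicates 1 to 3, 0.00303 to 0.0058% in KO replicates 4 to 7 and 0.00274 to 0.00508% in Flox libraries. All samples are labelled male, yet the Y-linked gene Ddx3y was at 0 CPM in KO replicates 6 and 7 and Flox replicate 6 and at 49.4 CPM or more in the other hypoxic libraries. What sets these libraries apart was not tested.

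**Figure D1:**
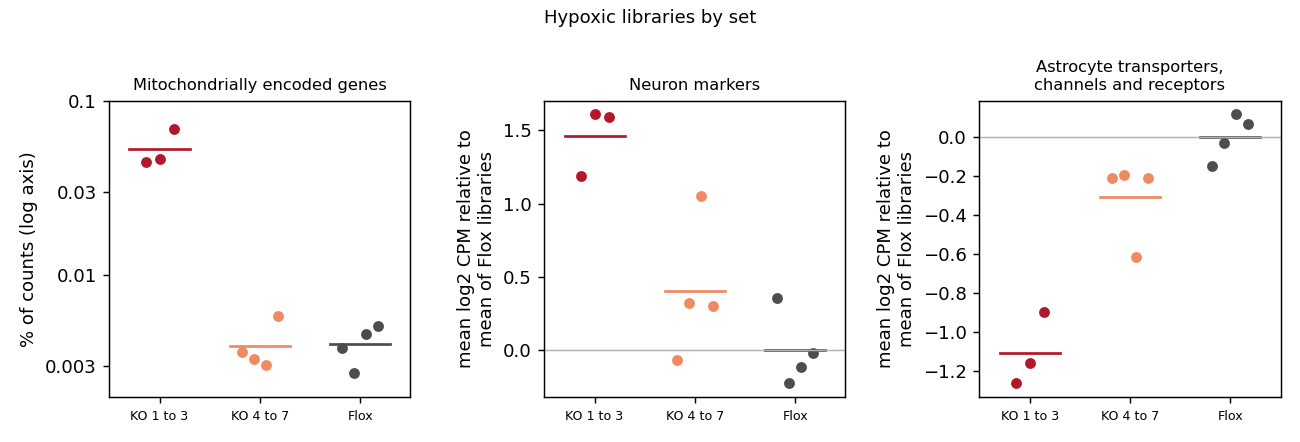
Share of counts from mitochondrially encoded genes (log axis) and mean log2 level of the neuron markers and of the astrocyte transporter list relative to the mean of the Flox libraries, for KO hypoxia replicates 1 to 3, KO hypoxia replicates 4 to 7 and Flox hypoxia replicates 3 to 6; each point is a library and each line a mean. Replicates 1 to 3 stand above all other libraries in mitochondrially encoded RNA and lowest in astrocyte transporters, and KO replicate 6 lies between the sets in the last 2 panels.

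Because of this split, each gene was tested 3 times with edgeR's quasi-likelihood test, with all 7 KO libraries, with replicates 1 to 3 alone and with replicates 4 to 7 alone, each time against the same 4 Flox libraries. A gene was called where its p, adjusted by the Benjamini-Hochberg method over all genes tested, was under 0.05. A call is said to hold in both sets where all 3 tests gave it in the same direction. The 3 tests share their controls, so holding in both sets is not a replication with new controls. Fold changes are log2 of KO over Flox, given with the standard error.

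All KO libraries had less RNA of Pdcd10 (ENSMUSG00000027835), the gene deleted by Cre, than any Flox library. It ranged over 6.98 to 12.2 CPM (median 9.34) in KO libraries and was 24.6, 30.7, 24.9 and 27.9 CPM in Flox replicates 3, 4, 5 and 6. The fold change was -1.501 ± 0.12 (edgeR adjusted p = 1.02e-06), with -1.30 ± 0.12 in replicates 1 to 3 and -1.69 ± 0.11 in replicates 4 to 7, so it held in both sets. In bulk RNA, fewer cells of a type and less RNA per cell cannot be told apart. Endothelial markers summed to 18.5 to 31 CPM in KO and 17.2 to 32.8 CPM in Flox libraries. Astrocyte markers summed to 36520 to 54830 CPM in KO and 53520 to 61170 CPM in Flox libraries. Which cells the fall of Pdcd10 comes from was not tested. Of the 10 genes of the CCM complex and its partners, Pdcd10 and Map3k3 were called lower and none was called higher, against 9.37% and 10.4% of all genes. Map3k3, the kinase that the complex restrains, ranged over 11.3 to 14.2 CPM (median 13.1) in KO and was 17.1, 14.3, 15.1 and 15.8 CPM in Flox libraries (-0.27 ± 0.085, adjusted p = 0.0308). That call held in neither set and was lost without KO replicate 3 (-0.25) or 6 (-0.26), without Flox replicate 3 (-0.23), 5 (-0.29) or 6 (-0.27), and with replicate number as a block (-0.34). Krit1 (-0.06 ± 0.074, adjusted p = 0.603) and Ccm2 (0.14 ± 0.062, adjusted p = 0.112), which encode the other complex members, did not pass. Krit1 was at 0.03 without Flox replicate 4.

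The tag and its driver were near the threshold. Rpl10a, the tagged ribosomal protein, ranged over 211 to 368 CPM (median 272) in KO and was 536, 362, 514 and 299 CPM in Flox libraries (-0.60 ± 0.21, adjusted p = 0.0506). It was called without KO replicate 1 (-0.67), 4 (-0.67) or 5 (-0.65) and without Flox replicate 6 (-0.73). Aldh1l1, the astrocyte folate enzyme whose promoter drives the tag, was 402, 409.6 and 397 CPM in KO replicates 1 to 3, 595, 560.3, 431 and 594 CPM in KO replicates 4 to 7 and 588, 598, 611 and 562 CPM in Flox libraries. It was called lower in replicates 1 to 3 (-0.56 ± 0.069, adjusted p = 2.9e-05) and was -0.12 ± 0.09 in replicates 4 to 7 (adjusted p = 0.472). With all libraries it did not pass (-0.28 ± 0.11, adjusted p = 0.0789), and it was called without KO replicate 4 (-0.34), 5 (-0.33) or 7 (-0.34).

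Of 19854 genes tested, 3917 (19.7%) were called, 2057 higher (10.4%) and 1860 lower (9.37%) in KO mice. Replicates 1 to 3 alone gave 7059 of 19980 genes (35.3%; 17.8% higher, 17.5% lower), and replicates 4 to 7 alone gave 1696 of 19504 (8.7%; 4.51% higher, 4.18% lower). In all, 1272 genes (6.41%) held in both sets, 587 higher (2.96%) and 685 lower (3.45%). Another 1195 higher and 997 lower genes held only with replicates 1 to 3, 157 and 81 only with replicates 4 to 7, and 118 and 97 with neither. Large changes were more often rises: 699 of the higher and 180 of the lower genes changed at least 2-fold, of which 258 and 133 held in both sets. Libraries of the groups did not overlap for 1066 genes with KO above Flox (5.37%) and 1296 with KO below (6.53%). The count of calls was 2217 without Flox replicate 4, 2143 without Flox replicate 5 and 2286 without the 3 libraries at 0 CPM of Ddx3y.

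**Figure D2:**
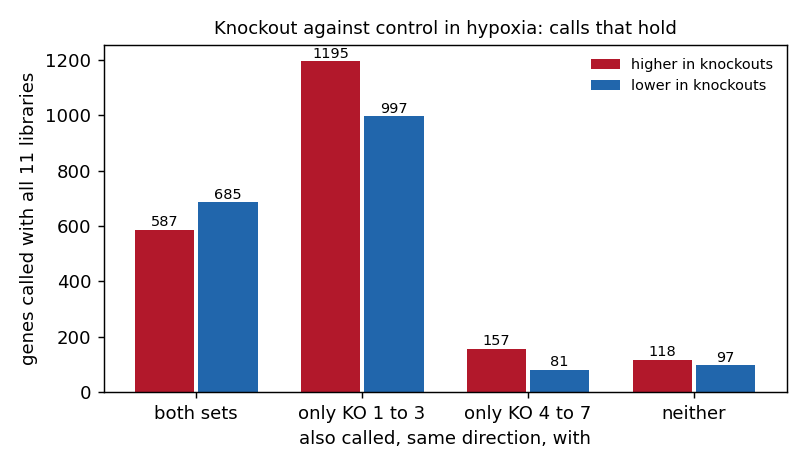
Number of genes called with all 11 hypoxic libraries (vertical axis), by whether the same call was also made with both sets of KO replicates, with only 1 set, or with neither; bars are split into genes higher and lower in KO. Most calls that held in a single set held with replicates 1 to 3: 1195 higher and 997 lower.

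Rises that held in both sets with no overlap between groups numbered 542. Those with an established symbol and a mean log2 CPM of at least 2 over the hypoxic libraries, 311 genes, were ranked by the smaller of their fold changes in the sets. The 16 largest of these were Ndufa4l2, Pde3a, the globins Hba-a2, Hbb-bs and Hba-a1, Nes, Psrc1, S1pr3, Shc4, Traf1, Tagln2, Slco1c1, Cit, Rgs5, Prss35 and Cdkn1a. The rule used these fold changes, so their values are descriptions of the genes chosen.

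Ndufa4l2, a HIF-induced mitochondrial protein abundant in pericytes, ranged over 19.4 to 44.8 CPM (median 26.8) in KO and was 1.24, 0.491, 3.54 and 0.791 CPM in Flox libraries (4.43 ± 0.64 in replicates 1 to 3 and 4.03 ± 0.58 in replicates 4 to 7). Rgs5, a G-protein regulator of pericytes, ranged over 14.4 to 36.7 CPM (median 24.3) in KO and was 5.15, 4.52, 5.84 and 5.12 CPM in Flox libraries. Among the globins, which carry oxygen in red cells, Hbb-bs ranged over 8.44 to 53.1 CPM (median 26.4) in KO and was 1.89, 1.75, 1.54 and 2.04 CPM in Flox libraries. Globin genes have near-identical copies, and their split of reads is uncertain. All 5 erythroid markers tested rose in both sets, and their sum was 75.5 to 132 CPM in KO replicates 1 to 3, 25.9 to 75 CPM in KO replicates 4 to 7 and 4.63 to 6.16 CPM in Flox libraries.

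Nes, the intermediate filament nestin of progenitors, reactive astrocytes and new vessels, ranged over 17.4 to 26.4 CPM (median 22.1) in KO and was 4.21, 3.44, 4.93 and 2.69 CPM in Flox libraries (2.56 ± 0.19). S1pr3, a receptor for sphingosine-1-phosphate, was 10.7, 12.4 and 24.2 CPM in KO replicates 1 to 3, 22.9, 21.2, 28.8 and 20.2 CPM in KO replicates 4 to 7 and 2.28, 3.08, 4.44 and 4.18 CPM in Flox libraries. Shc4, an adaptor of receptor tyrosine kinases, ranged over 14.9 to 21.8 CPM (median 17.2) in KO and was 3.7, 4.26, 3.61 and 6.59 CPM in Flox libraries, with almost the same fold change in the sets (1.97 ± 0.24 and 1.97 ± 0.22). Traf1, an adaptor of tumour necrosis factor receptors, differed by 2.06 ± 0.20, and Tagln2, an actin-binding transgelin, by 2.01 ± 0.24. Cit, the citron kinase of cytokinesis, ranged over 101 to 213 CPM (median 147) in KO and was 51.7, 30.9, 31.3 and 38.7 CPM in Flox libraries. Psrc1, a microtubule protein of the mitotic spindle, differed by 2.35 ± 0.33 and Prss35, a serine protease homologue, by 2.32 ± 0.32. For each of these 8 genes the lowest KO library lay above the highest Flox library, which the rule required.

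Falls that held in both sets with no overlap numbered 602, and 508 had an established symbol and that level. The 16 largest of these were Rtp1, Plin4, Fzd2, Mfsd2a, Myoc, Tmem52, Crispld2, Gdf10, Tsc22d3, Cebpa, Slc6a13, Arrdc2, Cdh19, Agt, Pdcd10 and Mum1l1. Fzd2, a Wnt receptor, was 22.5, 16 and 21.1 CPM in KO replicates 1 to 3, 43, 42.2, 25.8 and 44.4 CPM in KO replicates 4 to 7 and 168, 144, 177 and 136 CPM in Flox libraries. Mfsd2a, the transporter that carries docosahexaenoic acid into the brain, ranged over 19.9 to 34.3 CPM (median 29.6) in KO and was 129.8, 139, 145 and 63.5 CPM in Flox libraries. The Flox libraries were not uniform there, since replicate 6 had less than the other Flox replicates, though still more than any KO library. Cebpa, a transcription factor of metabolic genes, ranged over 51.1 to 80.5 CPM (median 72.6) in KO and was 242, 198, 176 and 184 CPM in Flox libraries, with -1.54 ± 0.17 in replicates 1 to 3 and -1.51 ± 0.17 in replicates 4 to 7. Agt, the angiotensin precursor that brain astrocytes make, ranged over 46.2 to 120.3 CPM (median 77) in KO and was 243, 262, 324 and 198 CPM in Flox libraries. Myoc, the secreted protein myocilin, differed by -2.06 ± 0.23, and Gdf10, a secreted growth factor of the TGF-beta family, by -1.82 ± 0.21. Cdh19, a glial cadherin, differed by -1.53 ± 0.20, and Crispld2, a secreted protein, by -1.70 ± 0.23. Slc6a13, a GABA and taurine transporter of meninges and vessels, differed by -1.500 ± 0.33 and Rtp1, a chaperone of odorant receptors, by -2.43 ± 0.35. Tmem52 (-2.14 ± 0.32) and Mum1l1 (-1.33 ± 0.21) were lower at low levels, up to 4.28 and 4.72 CPM in KO libraries.

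**Figure D3:**
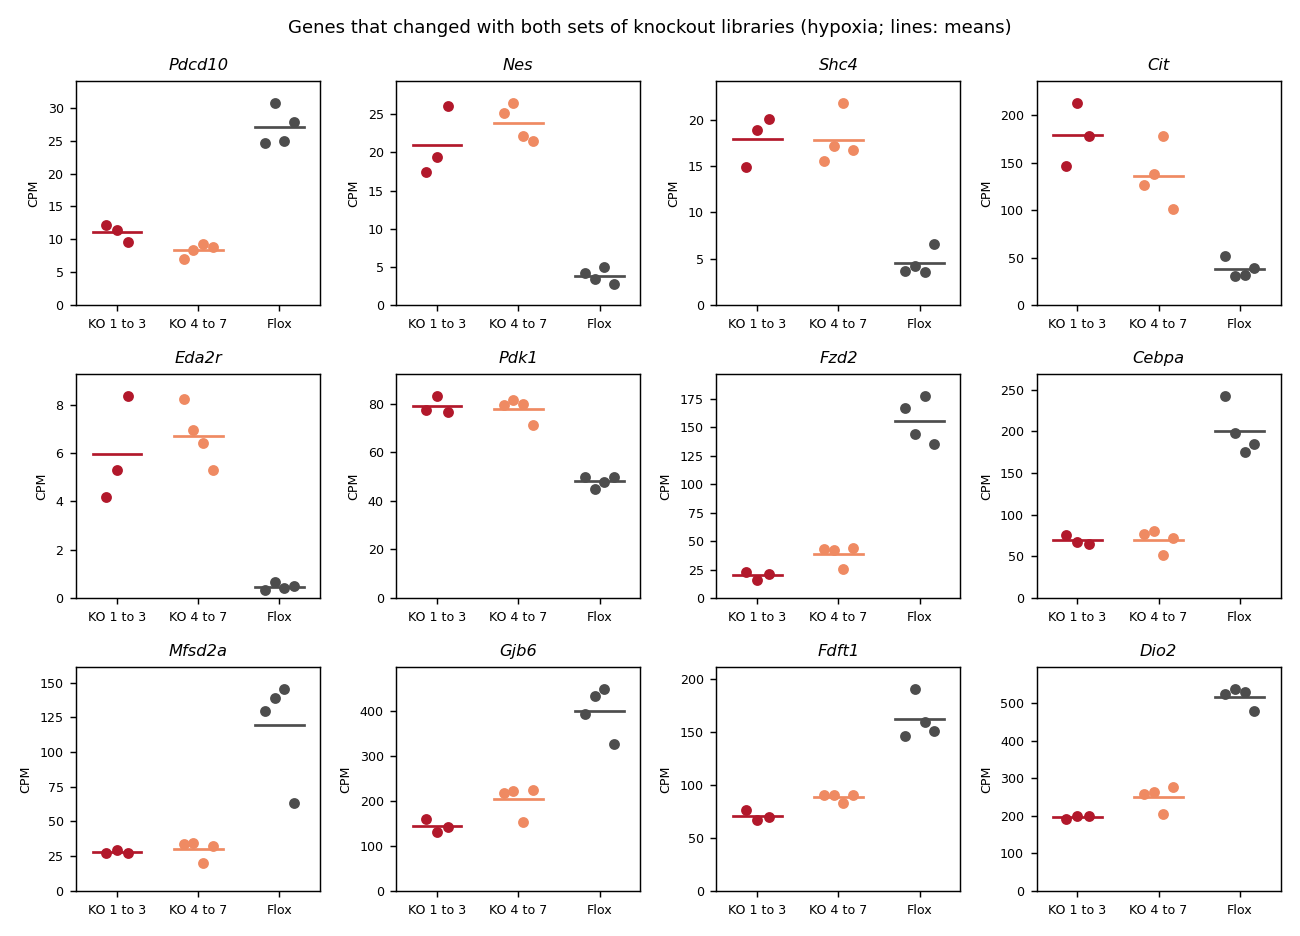
Level in CPM of 12 genes whose change held in both sets, in KO hypoxia replicates 1 to 3, KO hypoxia replicates 4 to 7 and Flox hypoxia replicates 3 to 6; each point is a library and each line a mean. In every panel all 7 KO libraries lie on the same side of all 4 Flox libraries. The rule for the largest changes required this of Pdcd10, Nes, Shc4, Cit, Fzd2, Cebpa and Mfsd2a, and the other genes were picked with their values known.

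Cholesterol synthesis fell as a group and held in both sets. The pathway turns acetyl-CoA into mevalonate, squalene and sterols, and its genes are switched on by SREBP2 (Srebf2) at sterol elements, with NF-Y bound at nearby CCAAT boxes. Of 19 genes, 16 were called lower and none higher with all libraries, 19 and none with replicates 1 to 3, and 14 and none with replicates 4 to 7, where 9.37%, 17.5% and 4.18% of all genes were called lower. The 14 held in both sets. The median fold change of the list was -0.58 with all libraries, -0.80 in replicates 1 to 3 and -0.55 in replicates 4 to 7, against 0.01, -0.01 and -0.00 over all genes. Fdft1, the squalene synthase, ranged over 67.2 to 90.7 CPM (median 83.3) in KO and was 146, 190.1, 159.7 and 151 CPM in Flox libraries (-0.997 ± 0.10, adjusted p = 8.79e-06). Msmo1, the methylsterol monooxygenase, ranged over 65.5 to 147 CPM (median 104) in KO and was 219, 249, 261 and 237 CPM in Flox libraries (-1.70 ± 0.11 and -0.94 ± 0.11 in the sets). Nsdhl, a sterol dehydrogenase of the same steps, ranged over 30.1 to 41.4 CPM (median 38.2) in KO and was 60.3, 65.1, 57 and 57.6 CPM in Flox libraries. Hmgcs1, which makes HMG-CoA, fell least of the 4 genes described here (-0.36 ± 0.088), at 394 to 524 CPM (median 474) in KO and 579.5, 692, 586 and 554 CPM in Flox libraries. Mvd, the mevalonate decarboxylase, differed by -0.99 ± 0.14.

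Promoters were read for these genes because they fell together. RefSeq promoters (GRCm38.p6, 250 bases before to 50 after the start, 300 in all) were found for 12 of the 16 lower genes. The CCAAT box, searched as CCAAT or its reverse complement ATTGG, was present in 12 of 12, and in 41.1% of all 27025 genes with a promoter. The sterol element searched as TCACNCCAC on both strands was present in 1, Hmgcs1, and in 1.44% of all genes, and the spelling with an A before it in none of the 12. These matches are descriptions of letters in a window. The windows of 3 of these genes follow, with CCAAT boxes and, in Hmgcs1, the sterol element TCACCCCAC in capitals.
Hmgcs1, chr13:119690101-119690400, plus strand: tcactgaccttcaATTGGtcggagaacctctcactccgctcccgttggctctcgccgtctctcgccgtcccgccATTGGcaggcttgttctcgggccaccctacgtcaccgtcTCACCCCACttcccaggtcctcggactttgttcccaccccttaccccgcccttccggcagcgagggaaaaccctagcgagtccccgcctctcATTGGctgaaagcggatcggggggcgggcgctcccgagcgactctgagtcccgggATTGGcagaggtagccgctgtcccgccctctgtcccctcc
Nsdhl, chrX:72918271-72918570, plus strand: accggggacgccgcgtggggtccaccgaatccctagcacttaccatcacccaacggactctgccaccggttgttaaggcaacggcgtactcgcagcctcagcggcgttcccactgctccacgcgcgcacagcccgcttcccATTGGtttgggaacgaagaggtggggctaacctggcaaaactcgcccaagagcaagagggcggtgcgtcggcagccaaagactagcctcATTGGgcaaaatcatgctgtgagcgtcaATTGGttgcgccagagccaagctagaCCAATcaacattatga
Msmo1, chr8:64733529-64733828, minus strand: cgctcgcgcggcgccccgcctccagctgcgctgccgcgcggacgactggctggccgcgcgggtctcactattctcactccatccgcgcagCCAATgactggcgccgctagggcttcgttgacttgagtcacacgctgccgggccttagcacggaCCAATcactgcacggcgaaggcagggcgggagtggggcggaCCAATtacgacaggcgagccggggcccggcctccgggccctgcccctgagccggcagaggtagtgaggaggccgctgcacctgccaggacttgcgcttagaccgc
Hmgcs1 holds 4 CCAAT boxes, Nsdhl 4 and Msmo1 3.

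Sterol uptake followed in part. Of 18 genes of sterol sensing, uptake and efflux, 8 were called lower and 1 higher (44.4% and 5.56%, against 9.37% and 10.4% of all genes), and 3 of the lower, Insig1 and Npc1 among them, held in both sets. Insig1, which holds SREBP in the endoplasmic reticulum and is itself an SREBP target, ranged over 37.7 to 88.5 CPM (median 48.5) in KO and was 103, 99, 126 and 121 CPM in Flox libraries (-1.01 ± 0.17). Npc1, which exports cholesterol from lysosomes, differed by -1.49 ± 0.15 in replicates 1 to 3 and -0.52 ± 0.13 in replicates 4 to 7. Abcg1, a cholesterol exporter, was the gene called higher (0.95 ± 0.31, adjusted p = 0.0405). Its call held only in replicates 1 to 3 and was lost without any single KO replicate of 1, 2, 3 and 6 (0.81 to 0.97), without any single Flox replicate (0.86 to 1.04) and with the replicate block (0.76).

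Fatty acid genes were mostly called lower with replicates 1 to 3. Of 24 genes of fatty acid synthesis and lipid storage, 9 were called lower and 2 higher, against 9.37% and 10.4% of all genes, and 5 lower and 1 higher held in both sets. The list median was -0.76 in replicates 1 to 3 and -0.11 in replicates 4 to 7. Acsl3, which activates fatty acids for lipid droplets, ranged over 121 to 228 CPM (median 136) in KO and was 384, 479, 507 and 389 CPM in Flox libraries. Acss2, which makes acetyl-CoA from acetate, ranged over 55.4 to 84.8 CPM (median 76.3) in KO and was 119.8, 139, 119.6 and 119 CPM in Flox libraries. The falls of Acsl3 and Acss2 held in both sets. Lpl, the lipoprotein lipase, rose (1.36 ± 0.28, adjusted p = 0.00354), and its call held in both sets. Of 20 genes of fatty acid oxidation and ketone bodies, 9 were called lower and none higher, and 6 held in both sets. Ppara, the receptor that drives this pathway, ranged over 8.65 to 14.9 CPM (median 12.8) in KO and was 25.6, 24.9, 21.9 and 21.4 CPM in Flox libraries. Acaa2, a thiolase, differed by -0.60 ± 0.097, and Cpt2, which moves acyl groups into mitochondria, by -0.54 ± 0.089, and both held in both sets.

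Glycolytic genes rose in both sets by count, by median and by mean log2 level, but not by summed level. Of 22 genes of glycolysis and pyruvate handling, 11 were called higher (50% of the list, against 10.4% of all genes) and 2 lower (9.09%, against 9.37%) with all libraries, and 8 of the higher held in both sets (Aldoa, Eno1, Gpi1, Ldha, Pdk1, Pfkl, Pfkp and Pgk1). The median was 0.29 in replicates 1 to 3 and 0.20 in replicates 4 to 7. The list summed to 22540 to 25430 CPM in KO and 23670 to 25620 CPM in Flox libraries, so the groups overlapped. That sum includes Aldoc, at 9581 to 12520 CPM in KO and 12800 to 14960 CPM in Flox libraries. The mean log2 level of the list, relative to the Flox mean, did not overlap. It was 0.114 to 0.275 in KO libraries and -0.036 to 0.047 in Flox libraries. Pdk1, which keeps pyruvate out of mitochondria, ranged over 71.2 to 83.2 CPM (median 79.6) in KO and was 50.1, 45.1, 47.9 and 49.9 CPM in Flox libraries (0.70 ± 0.082 and 0.69 ± 0.076 in the sets). Pfkp, a phosphofructokinase, ranged over 302 to 366 CPM (median 344) in KO and was 188, 209.9, 199 and 218 CPM in Flox libraries, and its liver-type counterpart Pfkl differed by 0.47 ± 0.066. Ldha, which makes lactate, ranged over 510.5 to 646 CPM (median 564) in KO and was 362, 350.4, 376 and 430 CPM in Flox libraries, and Pgk1, a kinase that makes ATP, differed by 0.45 ± 0.081. Gpi1, the glucose phosphate isomerase, differed by 0.53 ± 0.07. The 2 genes called lower were Slc2a1, the glucose transporter of the blood-brain barrier (-0.57 ± 0.14, adjusted p = 0.00983), and Aldoc, the astrocyte aldolase (-0.38 ± 0.096, adjusted p = 0.0108). Both calls held only in replicates 1 to 3.

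The core of the HIF response element was looked for because these genes rose together. It was searched as ACGTG or its reverse complement CACGT, so that each CACGTG counts as 2 matches, and it was present in the RefSeq promoters of 5 of the 11 higher glycolysis genes and of both glycolysis genes called lower, against 21.8% of all genes. Among HIF targets with a promoter it was present in 2 of 4 called higher and in 3 of 4 called lower. The window of Ldha printed here, 1 of 2 listed, has 5 matches and Pgk1 has 2, shown in capitals.
Ldha, chr7:46845554-46845853, plus strand: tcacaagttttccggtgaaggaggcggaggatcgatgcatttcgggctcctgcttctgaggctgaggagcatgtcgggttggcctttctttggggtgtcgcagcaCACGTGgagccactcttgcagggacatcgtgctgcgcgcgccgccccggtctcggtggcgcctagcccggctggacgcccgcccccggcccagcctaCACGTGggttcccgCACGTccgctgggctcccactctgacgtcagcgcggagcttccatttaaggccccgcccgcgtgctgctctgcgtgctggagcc
Pgk1, chrX:106186850-106187149, plus strand: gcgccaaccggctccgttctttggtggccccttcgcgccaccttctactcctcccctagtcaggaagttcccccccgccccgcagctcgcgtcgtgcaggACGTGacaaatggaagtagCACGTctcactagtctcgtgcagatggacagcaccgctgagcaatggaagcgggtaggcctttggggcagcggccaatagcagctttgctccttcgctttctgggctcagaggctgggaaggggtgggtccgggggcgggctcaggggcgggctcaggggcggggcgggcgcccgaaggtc

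Other HIF targets were called in both directions. The mean log2 level of the list, relative to the Flox mean, was 0.205 to 0.372 in KO libraries. In Flox libraries it was -0.079 to 0.074, with no overlap. That mean includes Ndufa4l2, which rose by 4.22 ± 0.53. Of 26, 7 were called higher and 4 lower (26.9% and 15.4%, against 10.4% and 9.37% of all genes), with a median of -0.07 in replicates 1 to 3 and 0.12 in replicates 4 to 7, and Ndufa4l2, Pdk1 and Car9 (higher) and Hif3a, Mxi1 and P4ha2 (lower) held in both sets. Car9, a carbonic anhydrase, stayed low, at 0.4 to 1.2 CPM (median 0.866) in KO and 0.147, 0.421, 0.0864 and 0.141 CPM in Flox libraries, and the groups overlapped. Hif3a, a HIF subunit that also responds to glucocorticoids, ranged over 10.8 to 36.7 CPM (median 22.6) in KO and was 73.8, 80.2, 61 and 41.5 CPM in Flox libraries. Mxi1, an antagonist of MYC, differed by -0.55 ± 0.098 and P4ha2, a collagen prolyl hydroxylase, by -0.80 ± 0.16. Vegfa, the main angiogenic factor, went opposite ways in the sets. It was 74.1, 73.5 and 80.3 CPM in KO replicates 1 to 3, 184, 187, 179.9 and 187 CPM in KO replicates 4 to 7 and 91.1, 96.9, 107 and 174 CPM in Flox libraries. It was called lower in replicates 1 to 3 (-0.64 ± 0.20, adjusted p = 0.0223) and higher in replicates 4 to 7 (0.65 ± 0.18, adjusted p = 0.0313), and did not pass with all libraries (0.24 ± 0.28, adjusted p = 0.587). Flox replicate 6 lay close to KO replicates 4 to 7.

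Glycogen genes were mostly called lower, and the serine and thyroid hormone lists moved both ways. Of 19 glycogen genes, 6 were called lower and 1 higher, where 9.37% and 10.4% of all genes were, and 4 lower and 1 higher held in both sets. Pgm1, which links glucose to glycogen, ranged over 212 to 315 CPM (median 256) in KO and was 437, 459.7, 428 and 369.8 CPM in Flox libraries, and Phka1, a subunit of phosphorylase kinase, differed by -0.60 ± 0.12. Ppp1r3g, a glycogen-targeting phosphatase subunit, differed by -0.59 ± 0.14, but with the replicate block it was -0.58 and not called (adjusted p = 0.0785). Gyg, glycogenin, rose by 0.31 ± 0.052. These named glycogen genes all held in both sets. Of 21 genes of serine, glycine and one-carbon metabolism, 6 were called lower and 3 higher, of which Phgdh, Slc6a9 and Slc38a1 held in both sets. Slc6a9, the glycine transporter GLYT1, ranged over 10.2 to 20.2 CPM (median 17.6) in KO and was 39.3, 37.3, 43.9 and 35.4 CPM in Flox libraries. Phgdh, the first enzyme of serine synthesis, differed by -0.50 ± 0.11, and Slc38a1, a glutamine transporter, rose by 0.71 ± 0.14. Of 12 genes of thyroid hormone activation and transport, 3 were called lower and 3 higher (25% each), and 3 lower and 1 higher held in both sets. The median of that list was -0.14 in replicates 1 to 3 and 0.138 in replicates 4 to 7. Dio2, the deiodinase by which astrocytes make active hormone, ranged over 191 to 277 CPM (median 203) in KO and was 523, 536, 529 and 479.9 CPM in Flox libraries, -1.41 ± 0.11 and -1.05 ± 0.12 in the sets. Klf9 (-0.58 ± 0.10) and Hr (-0.59 ± 0.12), both thyroid hormone targets, also fell in both sets.

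Astrocyte transporters, channels and receptors fell, and their median was lower in replicates 1 to 3. Of 25 genes, 15 were called lower with all libraries, 25 with replicates 1 to 3 and 10 with replicates 4 to 7, and none was called higher in any of these, where 9.37%, 17.5% and 4.18% of all genes were called lower. The 10 held in both sets. The count with all libraries was 8 without Flox replicate 5. The median was -1.05 in replicates 1 to 3 and -0.31 in replicates 4 to 7. Gjb6, the connexin 30 of astrocyte gap junctions, was 159.8, 131 and 142 CPM in KO replicates 1 to 3, 218, 221, 152 and 225 CPM in KO replicates 4 to 7 and 392, 434, 448 and 327 CPM in Flox libraries. Gja1, the connexin 43 partner, was 311, 332 and 423 CPM in KO replicates 1 to 3, 913, 941, 632 and 921 CPM in KO replicates 4 to 7 and 1135, 1348, 1427 and 1484 CPM in Flox libraries. Fgfr3, a growth factor receptor of astrocytes, differed by -1.55 ± 0.15 and -0.69 ± 0.14, and Glul, the glutamine synthetase, by -0.84 ± 0.12 and -0.50 ± 0.12. Slc1a2, the main glutamate transporter, was called lower with all libraries (-0.79 ± 0.24, adjusted p = 0.0308), held only in replicates 1 to 3, and lost its call without KO replicate 2 (-0.70) or 3 (-0.71) or Flox replicate 4 (-0.82), 5 (-0.72) or 6 (-0.74). Of the 10 astrocyte markers, several of them in this list, 6 were called lower and 1, Gfap, higher, of which 4 and 1 held in both sets. The endfoot genes Aqp4, a water channel, and Kcnj10, a potassium channel, did not pass with all libraries. Aqp4 differed by -1.01 ± 0.12 in replicates 1 to 3 (adjusted p = 1.71e-05) and by -0.026 ± 0.10 in replicates 4 to 7 (adjusted p = 0.909). Kcnj10 differed by -0.72 ± 0.17 (adjusted p = 0.00323) and by 0.32 ± 0.11 (adjusted p = 0.0997).

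**Figure D4:**
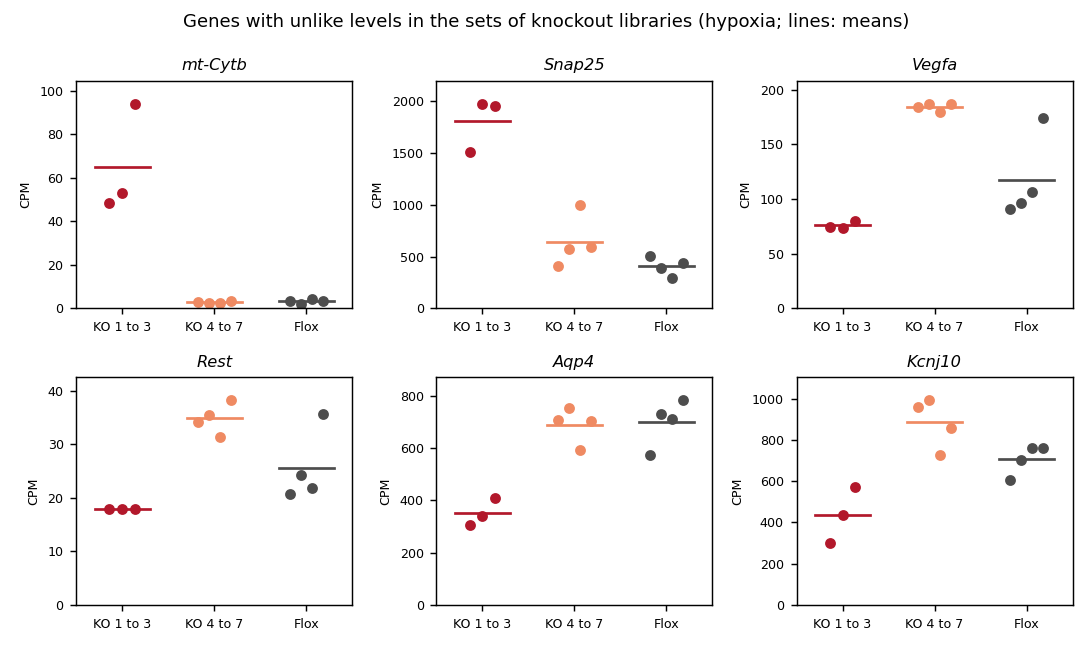
Level in CPM of 6 genes with unlike levels in the sets, in KO hypoxia replicates 1 to 3, KO hypoxia replicates 4 to 7 and Flox hypoxia replicates 3 to 6; each point is a library and each line a mean. mt-Cytb reaches 93.9 CPM in replicates 1 to 3 and at most 4.44 CPM in the other libraries, and Vegfa in Flox replicate 6 reaches 174 CPM.

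Reactive astrocyte genes rose in both sets. Of 13 pan-reactive genes, 6 were called higher and none lower, where 10.4% of all genes were called higher and 2.96% held higher in both sets, and Aspg, Cxcl10, Gfap, S1pr3 and Vim held in both sets, with a list median of 0.85 in replicates 1 to 3 and 0.92 in replicates 4 to 7. Gfap, the astrocyte filament, ranged over 9679 to 13380 CPM (median 12260) in KO and was 5900, 6492, 5872 and 5330 CPM in Flox libraries (0.85 ± 0.12 and 1.10 ± 0.10 in the sets). Vim, the filament vimentin, ranged over 576 to 749.5 CPM (median 619.5) in KO and was 278, 222, 261 and 224 CPM in Flox libraries. Cxcl10, a chemokine for T cells, ranged over 5.3 to 8.73 CPM (median 6.85) in KO and was 0.913, 1.12, 1.68 and 2.18 CPM in Flox libraries, and Aspg, an asparaginase, differed by 1.26 ± 0.18. The 4 genes had no overlap between groups.

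Growth arrest and p53 targets rose in both sets. p53 switches on cell cycle arrest and death genes after damage. Of 18 targets, 12 were called higher and 1 lower, against 10.4% and 9.37% of all genes, and 10 and 1 held in both sets, with a median of 0.57 in replicates 1 to 3 and 0.54 in replicates 4 to 7. Eda2r, a death-linked receptor, lay below the level used for the ranking above and ranged over 4.19 to 8.36 CPM (median 6.41) in KO and was 0.31, 0.666, 0.415 and 0.475 CPM in Flox libraries (3.77 ± 0.33, adjusted p = 2.13e-06). Phlda3, an inhibitor of AKT, ranged over 130 to 184 CPM (median 157) in KO and was 59.6, 54.2, 52.1 and 52.1 CPM in Flox libraries. Cdkn1a, the cell cycle inhibitor p21, ranged over 99.8 to 175 CPM (median 134) in KO and was 56.6, 60.3, 21.4 and 10.4 CPM in Flox libraries, where replicates 5 and 6 lay below replicates 3 and 4. Bbc3, the death protein PUMA, rose by 1.43 ± 0.20, and Sesn2, a stress sensor, by 0.66 ± 0.096. Sesn1, a related target, was the gene called lower (-0.68 ± 0.13). Of 20 cell cycle genes, 6 were called higher and 1 lower, and the G1 cyclins Ccnd1 (1.59 ± 0.18) and Ccnd2 (0.67 ± 0.10) held in both sets with Cdkn1a.

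Stress response genes moved both ways. Of 23 genes of the integrated stress and unfolded protein responses, 8 were called higher and 5 lower (34.8% and 21.7%, against 10.4% and 9.37% of all genes), and 6 and 3 held in both sets. Atf5, a stress transcription factor, ranged over 56.2 to 94.9 CPM (median 67.2) in KO and was 32.8, 33, 36.7 and 35.6 CPM in Flox libraries. Chac1, which degrades glutathione, rose by 1.82 ± 0.25, and Trib3, a kinase-like inhibitor, was 0.895 to 2.09 CPM in KO and 0.343, 0.228, 0.311 and 0 CPM in Flox libraries. The endoplasmic reticulum genes that held in both sets were lower. Herpud1, of protein degradation, differed by -0.55 ± 0.08, Xbp1, a transcription factor of the unfolded protein response, by -0.52 ± 0.10, and Manf, a secreted protein of that response, by -0.38 ± 0.073.

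Developmental signalling genes were called lower mainly with replicates 1 to 3. Of 31 Wnt genes, 13 were called lower and 3 higher with all libraries, 23 and 1 with replicates 1 to 3, and 5 and 4 with replicates 4 to 7, where 9.37%, 17.5% and 4.18% of all genes were called lower. Besides Fzd2, the receptors Fzd1 (-1.07 ± 0.16) and Fzd8 (-1.11 ± 0.21), the Wnt inhibitor Notum (-1.59 ± 0.27) and Sfrp5 held lower in both sets, and the receptor Fzd3 held higher (0.51 ± 0.11). Of 17 Notch genes, 5 were called lower and 2 higher. Hes5, a Notch target, ranged over 47.3 to 72.6 CPM (median 54.7) in KO and was 127, 122, 132 and 98.4 CPM in Flox libraries, and Hey2, another, differed by -0.68 ± 0.12 and Lfng, which modifies Notch, by -1.04 ± 0.19. These 3 held in both sets. Of 28 genes of TGF-beta and BMP signalling, 9 were called lower and 3 higher. Id2 ranged over 393 to 649 CPM (median 555) in KO and was 839, 1053, 865 and 941 CPM in Flox libraries, and Id1 differed by -0.62 ± 0.14. Both are BMP targets that block differentiation factors, and with Bmp4 and Gdf10 they held in both sets. The medians of the Wnt, Notch and BMP lists were -0.75, -0.87 and -0.74 in replicates 1 to 3 and -0.18, -0.21 and -0.16 in replicates 4 to 7.

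**Figure D5:**
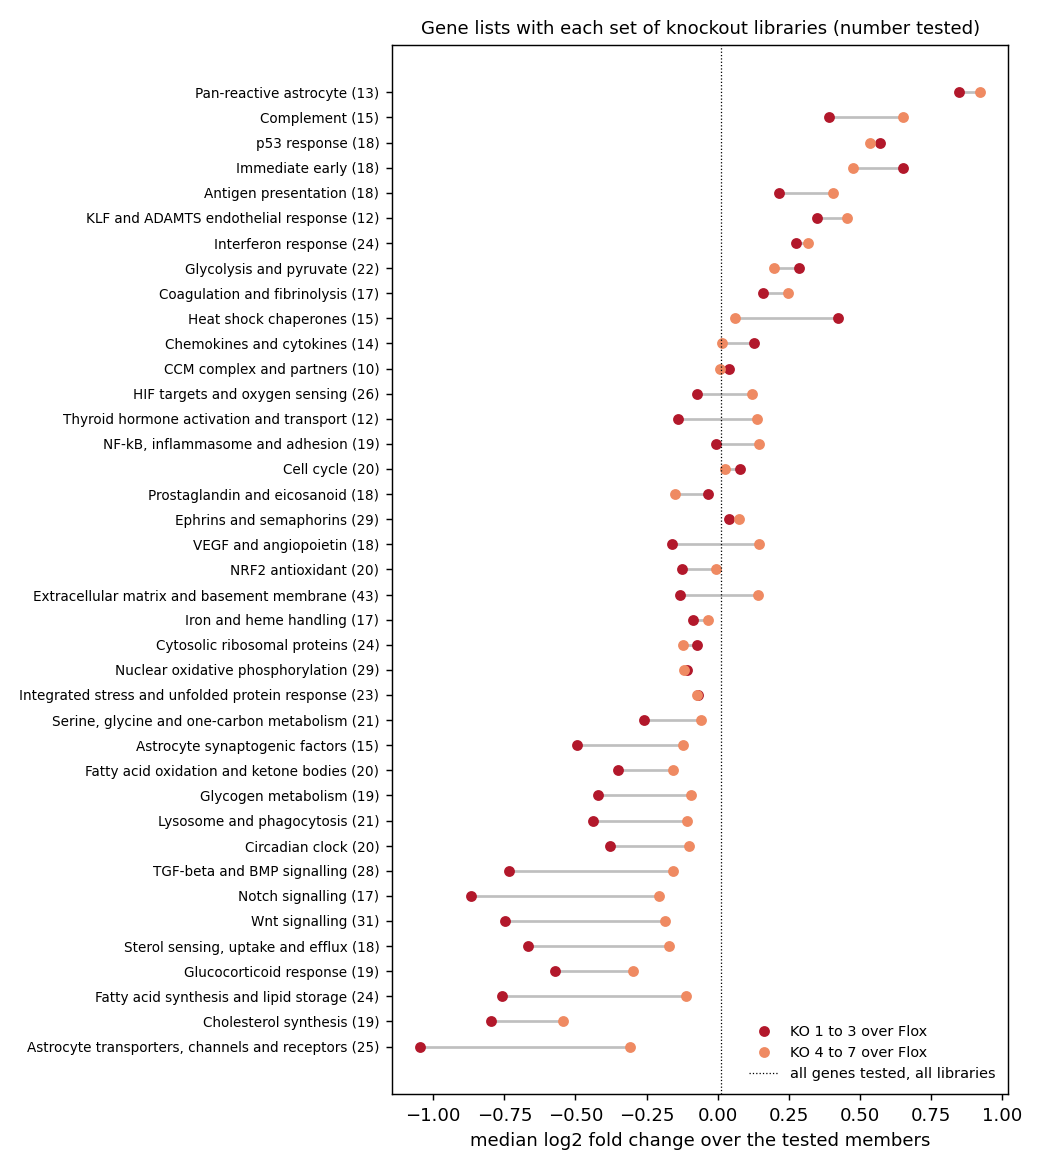
Median log2 fold change of KO over Flox libraries in hypoxia over the tested members of 39 gene lists, with KO replicates 1 to 3 and with KO replicates 4 to 7 (points joined by a line), beside the median of all genes tested with all libraries (dotted line). The pan-reactive, p53, cholesterol, transporter, Wnt, Notch and BMP lists each have both points on the same side of 0. The transporter, Wnt, Notch and BMP lists lie further below 0 with replicates 1 to 3 than with replicates 4 to 7. The list of mitochondrially encoded genes is not plotted.

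Some immune genes rose. Of 18 antigen presentation genes, 7 were called higher and 1 lower, where 10.4% and 9.37% of all genes were, and the class II genes Cd74, H2-Aa and H2-Eb1 and their activator Ciita held in both sets. Cd74, the class II chaperone, ranged over 6.24 to 14.1 CPM (median 7.09) in KO and was 3.51, 2.12, 4.51 and 2.41 CPM in Flox libraries. H2-Eb1 differed by 1.08 ± 0.24 and Ciita, below 1 CPM in every library, by 1.82 ± 0.32. Of 15 complement genes, 5 were called higher and 2 lower, and C1ra (higher, 1.23 ± 0.33) and C3ar1 held in both sets, though C1ra was not called without the 3 libraries at 0 CPM of Ddx3y (1.27). Clu, the abundant complement inhibitor clusterin, was called lower (-0.71 ± 0.19, adjusted p = 0.0138), held only in replicates 1 to 3, and lost its call without Flox replicate 5 (-0.62). Of 14 chemokines and cytokines, 4 were called higher and 2 lower. Cx3cl1, the neuronal ligand of microglia, was 182, 299.7 and 317 CPM in KO replicates 1 to 3, 99, 128, 273 and 145 CPM in KO replicates 4 to 7 and 84.7, 58.5, 71.2 and 93.1 CPM in Flox libraries. Its call held in both sets, just under the threshold in replicates 4 to 7 (edgeR adjusted p = 0.0497). Il18 (-0.73 ± 0.13) and Cxcl14 (-0.70 ± 0.16) fell in both sets. Of 19 genes of NF-kB, inflammasome and adhesion, 4 were called higher and 2 lower (21.1% and 10.5%). The median of that list was -0.006 in replicates 1 to 3 and 0.144 in replicates 4 to 7. Icam1, an adhesion molecule (1.59 ± 0.33), Ptgs2, the prostaglandin enzyme COX-2 (1.97 ± 0.31), and Traf1 held higher in both sets, and no fall did.

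Microglia markers were higher in part. Of 9 microglia markers, 5 were called higher (55.6%, against 10.4% of all genes) and none lower. Cx3cr1 (1.495 ± 0.22), Csf1r (1.06 ± 0.18) and Trem2 (1.08 ± 0.22) held in both sets. Their sum was 63 to 71.3 CPM in KO replicates 1 to 3, 57.3 to 77.8 CPM in KO replicates 4 to 7 and 35.7 to 46.1 CPM in Flox libraries. Of 21 genes of lysosome and phagocytosis, 3 were called higher (14.3%, near the 10.4% of all genes) and 7 lower (33.3%, against 9.37%). In both sets 3 and 3 held (14.3% each, against 2.96% and 3.45% of all genes). Gpnmb (1.53 ± 0.24), Ctss, a microglial protease (1.37 ± 0.27), and Lgals3 (1.28 ± 0.25) held higher. The engulfment receptors Mertk (-1.02 ± 0.20) and Axl (-0.92 ± 0.20) and the lysosomal enzyme gene Hexa held lower. The share of microglial RNA in the immune results was not tested.

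Among 43 matrix genes, 5 were called higher (11.6%), close to the 10.4% of all genes, and 8 lower (18.6%, against 9.37% of all genes), and 3 and 3 held in both sets. Lox, which crosslinks collagen, ranged over 1.62 to 4.04 CPM (median 2.96) in KO and was 0.571, 0.386, 0.657 and 0.352 CPM in Flox libraries, and Col18a1, a vessel basement membrane collagen, rose by 1.08 ± 0.21. Tnc, the glial protein tenascin C, was 4.53, 5.7 and 6.44 CPM in KO replicates 1 to 3, 14.5, 14.6, 10.3 and 13.7 CPM in KO replicates 4 to 7 and 22.9, 22.9, 28.2 and 27.8 CPM in Flox libraries, and Adamts9, a protease, differed by -1.04 ± 0.18. Of 17 clotting genes, 3 were called lower and 3 higher (17.6% each). F3, the tissue factor that starts clotting, ranged over 59.4 to 125 CPM (median 84.8) in KO and was 157, 181, 176 and 193 CPM in Flox libraries. Tfpi, its inhibitor, differed by -0.88 ± 0.21, and Anxa2, a plasmin receptor, by 0.78 ± 0.17; all 3 held in both sets. Of 12 genes of the endothelial response to CCM loss, 3 were called higher and 1 lower, and 2 and 1 held in both sets. Klf2 ranged over 12.5 to 20.2 CPM (median 16.1) in KO and was 9.13, 4.93, 7.35 and 10.2 CPM in Flox libraries (1.03 ± 0.22), Klf6 rose by 0.44 ± 0.084, and both held in both sets. Rhob, a small GTPase, was the gene that fell in both sets (-0.45 ± 0.11). Klf4 was 8.25 to 12.55 CPM in KO libraries and 8.50, 8.78, 8.80 and 16.8 CPM in Flox libraries, and did not pass (-0.06 ± 0.21, adjusted p = 0.882).

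Glucocorticoid response genes fell, and in the mean level of that list Flox replicate 6 lay nearest to the KO libraries. Of 19 glucocorticoid response genes, 9 were called lower and 1 higher, and 6 and 1 held in both sets. Over all genes 9.37% were called lower and 10.4% higher, and 3.45% and 2.96% held. Tsc22d3, the anti-inflammatory GILZ, ranged over 278 to 592 CPM (median 505) in KO and was 1770, 2089, 1484 and 1008 CPM in Flox libraries. Plin4, a lipid droplet coat, ranged over 2.06 to 4.39 CPM (median 2.64) in KO and was 18, 18.8, 17.6 and 4.55 CPM in Flox libraries. Arrdc2, an arrestin-domain protein, ranged over 11.9 to 19.4 CPM (median 15.5) in KO and was 59.9, 61, 41.7 and 21.4 CPM in Flox libraries. In all 3 genes, Flox replicate 6 was the lowest Flox library and lay above all KO libraries. Sult1a1, a sulfotransferase, differed by -1.46 ± 0.25, and Arl4d, a small GTPase, by -1.20 ± 0.21. Of 20 clock genes, 8 were called lower and none higher, and Npas2 (-0.72 ± 0.14), Tef (-0.35 ± 0.071) and Cry1 (-0.40 ± 0.098) held in both sets. Without Flox replicate 6 the lists gave 8 and 5 genes lower, and the circadian clock list gave 5 without Flox replicate 3 or 5 and 3 without Flox replicate 4. The mean log2 level of the glucocorticoid list relative to the Flox mean was -0.89 to -0.35 in KO libraries and -0.38 to 0.25 in Flox libraries, so the groups overlapped at Flox replicate 6. That of the Circadian clock list was -0.39 to -0.15 in KO libraries and -0.03 to 0.03 in Flox libraries, with no overlap. Immediate early genes, which respond to activity and handling, summed to 1129 to 1626 CPM in KO libraries and to 646 to 1556 CPM in Flox libraries, highest in Flox replicate 6. Egr1 was 211, 337 and 307 CPM in KO replicates 1 to 3, 114, 150.3, 255 and 203 CPM in KO replicates 4 to 7 and 75.4, 46.5, 52.3 and 146 CPM in Flox libraries, and its call (1.49 ± 0.34) held only in replicates 1 to 3. The time of day or handling of the animals is not given in the labels, and their part was not tested.

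The sets were told apart by mitochondrial and neuronal RNA, so the calls of those genes by set describe the sets and are no test. All 11 neuron markers were called higher with replicates 1 to 3, 7 with all libraries and 1, Syp, with replicates 4 to 7. Of all genes, 17.8%, 10.4% and 4.51% were called higher in these tests. Syp, a synaptic vesicle protein, was 162, 249 and 258 CPM in KO replicates 1 to 3, 91.1, 104, 213 and 118 CPM in KO replicates 4 to 7 and 77.2, 54.7, 71.3 and 83.7 CPM in Flox libraries. Snap25, of the vesicle fusion machinery, differed by 2.14 ± 0.25 in replicates 1 to 3 and by 0.66 ± 0.27 in replicates 4 to 7 (adjusted p = 0.159), and its call with all libraries (1.49 ± 0.39) was lost without Flox replicate 5 (1.36). Oligodendrocyte markers rose in 7 of 8 cases with replicates 1 to 3 and in none with replicates 4 to 7, and summed to 797 to 1510 CPM in KO and 813 to 903 CPM in Flox libraries. The precursor marker Olig1 rose in both sets (0.75 ± 0.12 and 0.86 ± 0.088). Mural markers were called higher in 4 of 9 cases and summed to 147 to 241 CPM in KO and 109 to 175 CPM in Flox libraries. Endothelial markers were called higher in 2 of 9 cases, none of them in replicates 4 to 7, and summed to 18.5 to 31 CPM in KO and 17.2 to 32.8 CPM in Flox libraries. Fibroblast and meningeal markers, Slc6a13 among them, were called lower in 3 of 7 cases (42.9%, against 9.37% of all genes). They summed to 108 to 193 CPM in KO and 199.9 to 304 CPM in Flox libraries. Of 4 T and B cell markers, Cd3e and Cd79a were called lower in both sets, and Cd3e was at 0 in a KO library of each set. The part of other cells' RNA in the gene groups above, the astrocyte falls of replicates 1 to 3 included, was not tested.

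Of the 13 genes of the mitochondrial genome tested, which also define the sets, 10 were called higher with all libraries, 13 with replicates 1 to 3 and none with replicates 4 to 7. mt-Cytb, a complex III subunit, was 48.5, 52.9 and 93.9 CPM in KO replicates 1 to 3, 2.93, 2.49, 2.45 and 3.62 CPM in KO replicates 4 to 7 and 3.28, 2.21, 4.44 and 3.45 CPM in Flox libraries. Its fold change was 4.27 ± 0.35 and -0.22 ± 0.28 in the sets. The call with all libraries (3.14 ± 0.96, adjusted p = 0.03) was lost without KO replicate 2 or 3 or any single Flox replicate (2.49 to 3.31) and with the replicate block (0.83). Nuclear genes of oxidative phosphorylation did not follow: of 29, none was called higher and 5 lower (17.2%, against 9.37% of all genes). Besides Vegfa, 8 genes were called lower with replicates 1 to 3 and higher with replicates 4 to 7, among them Rest, a repressor of neuronal genes, and 1 gene went the other way. Rest was 17.9, 17.9 and 17.8 CPM in KO replicates 1 to 3, 34.1, 35.5, 31.4 and 38.2 CPM in KO replicates 4 to 7 and 20.8, 24.2, 21.8 and 35.7 CPM in Flox libraries.

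The knockout difference in hypoxia was set against that at 21% oxygen in the same fit. In normoxia 2415 genes (12.2%) were called, 1369 higher (6.9%) and 1046 lower (5.27%). Of the genes called in hypoxia, 777 of 2057 higher and 437 of 1860 lower were called in normoxia in the same direction, and 374 of 587 and 255 of 685 of those that held in both sets. The difference between the differences passed for 2 genes (0.0101%), Slco1c1 and Pde3a, while 2291 genes had an unadjusted p under 0.05, and DESeq2 called 108. The count was 2 with KO replicates 4 to 7 alone and 1720 with KO replicates 1 to 3 alone (492 higher and 1228 lower), and 23 without Flox replicate 6. Slco1c1, a thyroid hormone transporter of brain vessels and astrocytes whose promoter drives the Cre, was 256, 447 and 457 CPM in KO replicates 1 to 3, 491, 481, 370 and 465 CPM in KO replicates 4 to 7 and 94, 103, 127 and 105 CPM in Flox libraries in hypoxia. In normoxia it was 475.6, 193.8, 425.5 and 455.9 CPM in KO libraries and 837.3, 654.3, 607.7 and 689.8 CPM in Flox libraries. The KO libraries of both oxygen levels thus overlapped, and the Flox libraries in hypoxia lay below all others. The difference was 2.83 ± 0.31 (adjusted p = 0.000653), 2.66 ± 0.35 with KO replicates 1 to 3 and 2.91 ± 0.31 with KO replicates 4 to 7. Pde3a, a phosphodiesterase of cyclic AMP and GMP, showed the same order. It was 25.4, 56.5 and 52.4 CPM in KO replicates 1 to 3, 25.2, 20.8, 19.4 and 19.6 CPM in KO replicates 4 to 7 and 2.3, 2.23, 2.35 and 1.27 CPM in Flox libraries in hypoxia. In normoxia it was 29.1, 9.45, 26.2 and 20.04 CPM in KO libraries and 48.3, 32.8, 30.0 and 33.3 CPM in Flox libraries. Its difference was 4.71 ± 0.54 (adjusted p = 0.000653), 5.19 ± 0.49 with KO replicates 1 to 3 and 4.14 ± 0.41 with KO replicates 4 to 7. In the RefSeq annotation of GRCm38.p6 the genes are neighbours on chromosome 6, with 0 protein-coding genes between them. What sets the Flox libraries in hypoxia apart at this pair was not tested.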

How the data were processed

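Raw counts per gene were used as deposited. HISAT2, edgeR and GRCm39 are named in the submitters' processing notes, and per the labels the libraries came from an Illumina stranded mRNA kit. The counter and its strand setting are not given in the sources used here, so overlapping and antisense genes are uncertain, as are globin and histocompatibility genes with near-identical copies. In the deposited counts, 65.9% of values from 2 to 21 were even. Of 21 labelled samples, 19 had a count column, and Flox hypoxia 1 and 2 were not analysed here. Of 55416 gene IDs, 52083 had a symbol in the reference tables.

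Genes were filtered with filterByExpr, scaled by TMM and fitted with edgeR 4.0.16 (limma 3.58.1, R 4.3.3) over the 19 libraries with 4 group terms. The standard error is the fold change divided by the square root of F. KO replicates 1 to 3 and 4 to 7 were told apart by measured RNA, so they were never tested against each other. The labels do not say that replicates came from separate animals, and p-values therefore reflect how far these samples spread, which may be technical.

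The members and lists were chosen with earlier results of these data known. Genes named with values were the 16 largest rises and 16 largest falls that held in both sets without overlap, among genes with an established symbol and a mean log2 CPM of at least 2, genes called in 1 set and not the other, and members of the lists. Another 20 were chosen after their values were seen: Hmgcs1, Abcg1, Lpl, Ldha, Pgk1, Slc2a1, Aldoc, Car9, Hif3a, Vegfa, Slc1a2, Aqp4, Kcnj10, Sesn1, Trib3, Xbp1, Manf, Fzd3, Axl and Rest, and so were Klf4 and Rhob. Some list members are counted but not reported by name here.

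Same-numbered KO and Flox libraries 3 to 6 deviated together from their group means (correlations 0.27, 0.12, 0.12 and 0.12). Replicate number was therefore tried as a block, a pairing that no label states and these values do not establish. The main tests did not pair libraries. Flox 6 correlated best with KO 7, not KO 6. Alternatives were another scaling (RLE, or TMM without mitochondrial and erythroid genes), 2 other filters on low counts, DESeq2 1.42.0, the hypoxic libraries alone, a replicate block, a stricter threshold, and leaving out libraries.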

Additional observations from a re-analysis of the deposited data

Results flagged for a closer look

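Among 148 named genes in 2 groups (296 sets of values), 16 had a library far from the others of its group. Chance gives about 1 in 20, so this count is near what chance gives. The libraries listed here are descriptions and not traits of a replicate.

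In KO libraries, replicate 3 was high for Vim (749.5 CPM, next 639.9), Tagln2 (103.4 CPM, next 83.7) and Ndufa4l2 (44.8 CPM, next 29.8) and low for Npas2 (27.5 CPM, next 30.95). Replicate 6 was low for Tsc22d3 (278.5 CPM, next 467) and Klf9 (386 CPM, next 467) and high for Aspg (32.7 CPM, next 27). Replicate 1 was low for Ccnd2 (171 CPM, next 249) and Slc38a1 (82.9 CPM, next 129).

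In Flox libraries, replicate 6 was low for Plin4 (4.555 CPM, next 17.6), P4ha2 (4.08 CPM, next 7.40), Adamts9 (9.83 CPM, next 12.0) and Pde3a (1.27 CPM, next 2.23). Replicate 4 was high for Acss2 (139 CPM, next 119.8) and Il18 (105 CPM, next 86.7), and replicate 5 for C1ra (0.691 CPM, next 0.522).

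The log2 fold change of KO over Flox was higher in hypoxia than in normoxia for Slco1c1 (by 2.83) and Pde3a (by 4.71), tested as a difference of differences with edgeR.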

How the results depend on the processing

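The count of 3917 called genes was 1696 without KO replicates 1 to 3, 7059 without KO replicates 4 to 7, 2286 without the 3 libraries at 0 CPM of Ddx3y and 1398 at an adjusted p under 0.01. It was 2143 to 4744 when single libraries were left out, lowest without Flox replicate 5 and highest without KO replicate 4. With the replicate block it was 2641 (1472 higher, 1169 lower), against 3015 with the hypoxic libraries alone and no block. KO replicates 1, 2 and 7 have no Flox library of the same number with counts. The block therefore leaves the KO difference to replicates 3 to 6, and it is no check of all 7 KO libraries. Under the block Abcg1, Map3k3, Ppp1r3g and mt-Cytb lost their calls among the 140 called genes named, and no other did. The count with KO replicates 1 to 3 was 4488 at the stricter threshold and 5322 to 6811 with single libraries left out. That with KO replicates 4 to 7 was 689 at the stricter threshold and 957 to 1561 with single libraries left out (957 without KO replicate 6, 1124 without Flox replicate 4, 1098 without Flox replicate 5). The difference between oxygen levels gave 108 genes with DESeq2, 1720 without KO replicates 4 to 7, 11 without the 3 libraries at 0 CPM of Ddx3y, and 2 to 23 with single libraries left out. The sterol element was in 1 promoter, and in 0 with the longer spelling. Signs turned for Vegfa (-0.64) and Rest (-0.53) without KO replicates 4 to 7, mt-Cytb (-0.22) without KO replicates 1 to 3, Krit1 (0.029 without Flox replicate 4, -0.111 to 0.029 with single libraries left out), and Kcnj10 (0.32 without KO replicates 1 to 3, 0.16 with the block, -0.152 to 0.095 with single libraries left out). RLE scaling changed no call among the 148 genes named. The cause of these changes was not tested.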

Other observations

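Of 29 ephrins, semaphorins and their receptors, 4 were called higher and 4 lower (13.8% each), and 1 and 2 held in both sets of KO replicates (3.45% and 6.9%). Over all genes 10.4% were called higher and 9.37% lower, and 2.96% and 3.45% held, so these shares are near those of all genes. Epha4, an ephrin receptor, ranged over 27.6 to 80.7 CPM (median 52) in KO libraries and was 21.5, 17.8, 22.9 and 25.3 CPM in Flox libraries (1.34 ± 0.29, edgeR adjusted p = 0.00443). Sema4b, a membrane semaphorin, ranged over 17.4 to 36.2 CPM (median 26.6) in KO and was 48.2, 49.2, 66.1 and 51.7 CPM in Flox libraries (-0.998 ± 0.17). The calls of Epha4 and Sema4b held in both sets. Of 15 factors by which astrocytes promote synapses, 4 were called lower and none higher, and Gpc5, a glypican, held in both sets at 38.1 to 95.3 CPM (median 59.4) in KO and 106, 126, 138 and 135 CPM in Flox libraries (-0.98 ± 0.22).

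Of 20 NRF2 antioxidant genes, 5 were called higher (25%, against 10.4% of all genes) and 2 lower (10%, near the 9.37% of all genes). Hmox1 and Me1 (higher) and Prdx6 (lower) held in both sets. Of 24 interferon response genes, 4 were called higher (16.7%, against 10.4% of all genes) and 2 lower (8.33%, against 9.37%), and Gbp3, Ifit2 and Irgm1 held higher in both sets. Of 15 heat shock chaperones, 4 were called higher and 1 lower with all libraries (26.7% and 6.67%). The counts were 9 and 2 with KO replicates 1 to 3, and 1 and 1 with KO replicates 4 to 7. Of all genes, 10.4% and 9.37%, 17.8% and 17.5%, and 4.51% and 4.18% were called in these tests. The lower calls, and those with KO replicates 4 to 7, were thus near the shares of all genes. Of 18 VEGF and angiopoietin genes, 3 were called higher and 4 lower (16.7% and 22.2%, against 10.4% and 9.37% of all genes), and none held in both sets, where 6.41% of all genes did.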
